A study of Rattus norvegicus with 38 samples.

Results

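The genes described here are 225 Ensembl gene IDs whose counts in captured cortical neurons were lower in late than in early animals of both rat strains. They were selected on the measured values themselves. Counts of the 19 neuron libraries were divided by the library total, without the most abundant ID (ENSRNOG00000043866), to give CPM (counts scaled by the library total, per 1e6). An ID was kept where the mean of log2(CPM + 1) was lower by at least 0.8 in the late group, in Wistar and again in SHRSP rats, and where its mean over the 19 libraries was 10 CPM or more. Of the 32883 IDs in the table, 8060 reached that level, and 225 of these (2.79%) met both differences. The members are given by ID, because the reference gene table matched 0 of the 32883 IDs and the files hold no gene names. Their functions, positions and sequences are therefore not described here.

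Laser microdissection, which cuts chosen pieces out of a tissue section, was used on the frontal brain. Each of 19 numbered rats gave 1 library from captured cortical neurons and 1 from cortical blood vessels. Wistar rats, a common laboratory stock, were compared with SHRSP rats, the stroke-prone form of the spontaneously hypertensive rat. The labels call the stages early and late hypertension for both strains, at ages of 24 to 25 and 32 to 34 weeks. Each material had 5 early and 4 late libraries of Wistar rats, and of SHRSP rats 5 at each stage. No treatment is named in the labels, and neither is the way the captured pieces were picked. SHRSP rats develop severe hypertension and, with age, small-vessel disease and strokes, and the series title asks how the brain's expression signature depends on the stage. Cortical neurons depend on the vessels beside them for oxygen and glucose, which is the usual reason for sampling both from the same animal. A captured piece of cortex can also hold glia and capillaries. Whether the neuron captures hold neuronal markers could not be checked by name, and in such bulk material fewer cells of a type and less RNA per cell cannot be told apart.

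Totals lay between 1198386 and 4963429 counts. The libraries did not differ by stage alone. The most abundant ID took 4.34% to 10.7% of the neuron counts in 8 early animals and 20.4% to 35.5% in the other 11, which were all 9 late animals and the early animals 349 (Wistar) and 383 (SHRSP). These 11 are called high-share animals below, a name that rests on the neuron libraries. In vessels the most abundant ID took 9.69% to 40.6% of the counts in these 11 and 6.45% to 16.3% in the 8 others, with overlap. In the vessel libraries of the 11 animals 9875 to 11974 IDs had a count, against 4104 to 8752 in the 8 others. Stage and this property of the libraries coincide in 17 of the 19 animals and largely cannot be told apart, so values of animals 349 and 383 are given beside the results.

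In the neuron libraries the 225 members together took 2.96% ± 0.51 of the counts in early Wistar and 1.39% ± 0.419 in late Wistar rats (SD, n = 5 and 4). In SHRSP rats they took 2.86% ± 0.544 in early and 1.4% ± 0.406 in late animals (SD, n = 5 each). The early Wistar libraries held 2.77%, 3.15%, 3.09%, 2.21% and 3.59% (animals 340, 343, 346, 349 and 368), and the late ones 1.36%, 1.98%, 1.06% and 1.13% (350, 351, 353 and 354). Early SHRSP libraries held 3.18%, 3.0%, 3.14%, 1.89% and 3.08% (374, 377, 380, 383 and 386), and late ones 1.6%, 0.906%, 1.73%, 1.74% and 1.02% (378, 379, 381, 382 and 384). Early and late libraries did not overlap within either strain, which the choice of the members favours. The lowest early library of each strain was the high-share one, 349 or 383.

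**Figure D1:**
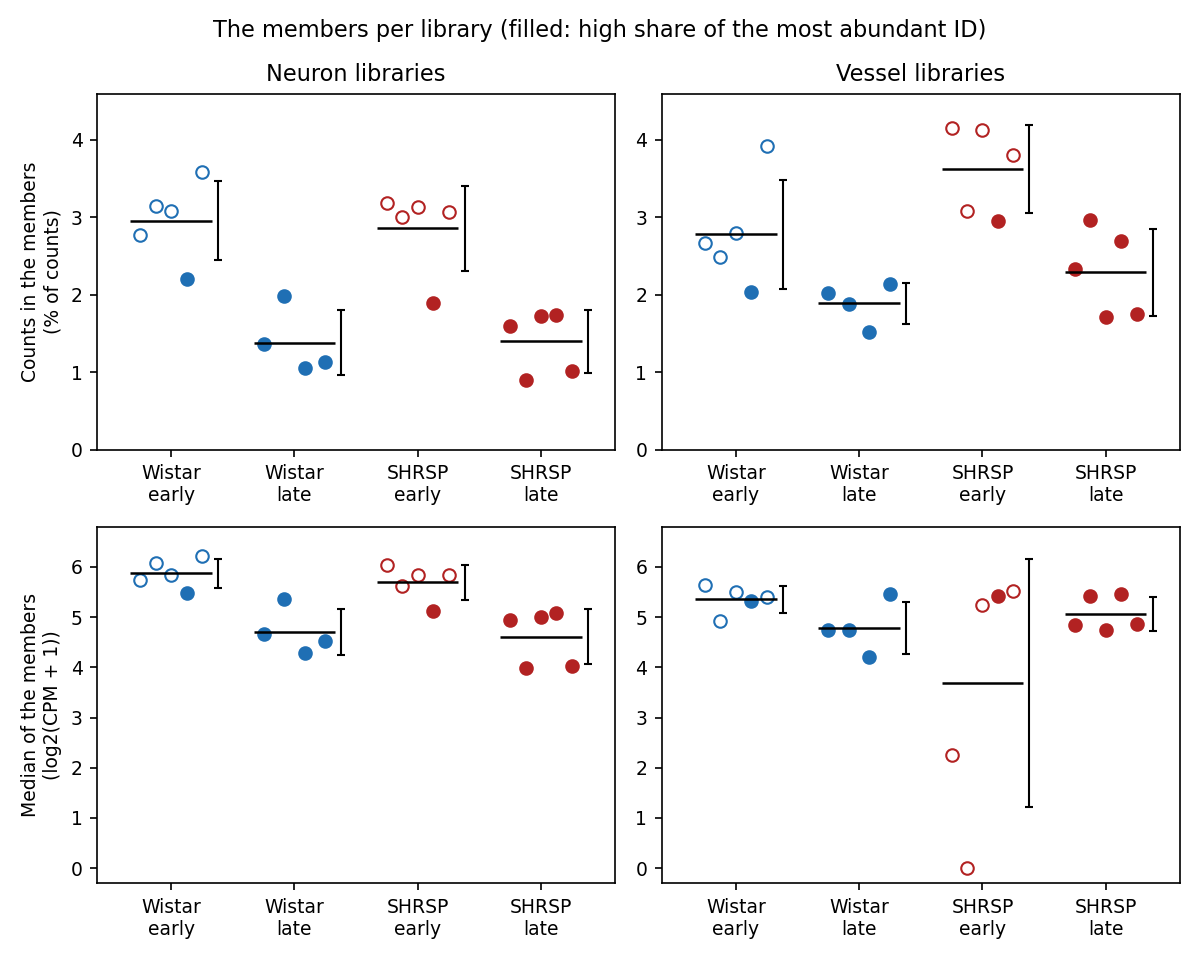
Each point is 1 library: the upper panels show the percent of counts in the 225 members and the lower panels their median level as log2(CPM + 1), by strain and stage, for neurons (left) and vessels (right). Lines are group means and bars SD, and filled points are the 11 high-share animals. In neurons the early animals 349 and 383 lie at 2.21% and 1.89%, below the other early libraries.

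The median differences of the strains were close, and the same threshold was applied to both. The median member was lower by 1.12 in late Wistar neurons (2.17-fold) and by 1.05 in late SHRSP neurons (2.07-fold) on the log2(CPM + 1) scale. The differences ran from -0.80 to -3.60 in Wistar and from -0.80 to -2.29 in SHRSP. Over all 8060 IDs at this level the medians were -0.07 and -0.13. Of the members, 150 were lower by at least 1 in Wistar, 128 in SHRSP and 101 in both, and only 2 were lower by at least 2 in both. The difference was larger in Wistar for 129 members and larger in SHRSP for 96. These values chose the members and are a description. All late libraries lay below all early ones for 65 members in Wistar, where 6.08% of the 8060 IDs did so. The same held for 57 members in SHRSP, against 4.99%, and for 26 members in both strains, each taken on its own, against 0.968%. For most members, then, single late and early animals overlapped.

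**Figure D2:**
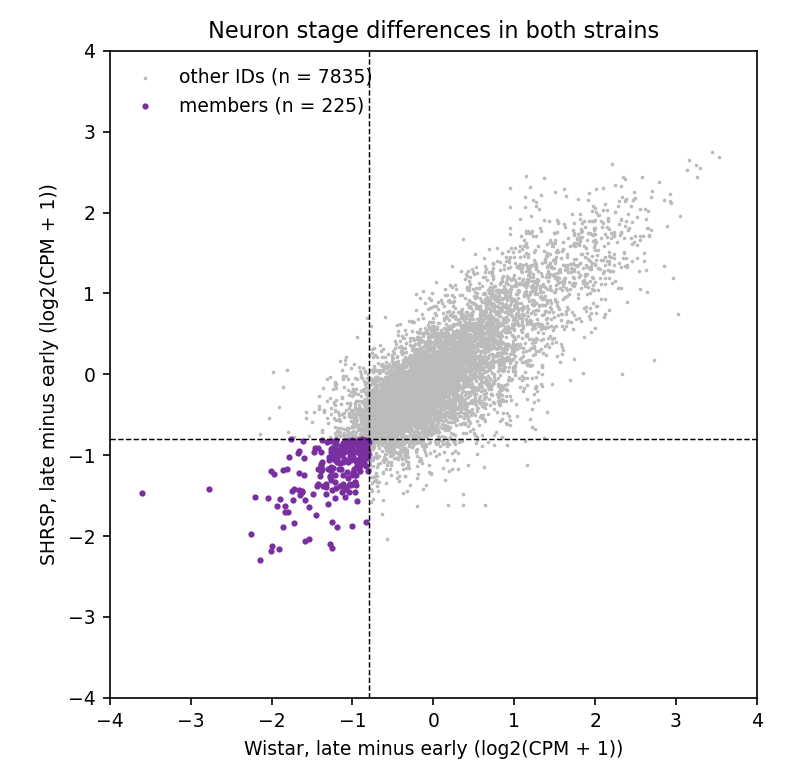
Each point is 1 of the 8060 IDs with a neuron mean of at least 10 CPM, placed by its late minus early difference of mean log2(CPM + 1) in Wistar (horizontal) and SHRSP (vertical). Dashed lines mark the threshold of -0.8, and the 225 members fill the lower left corner by construction, down to -3.60 in Wistar and -2.29 in SHRSP.

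Above the rule's minimum of 10 CPM, members were spread over all levels of expression. Their neuron mean ran from 10.1 to 2061 CPM with a median of 43.6, close to the median of 41.6 over the 8060 IDs. Between 10 and 25 CPM lay 62 members (2.45% of the IDs in that range), between 25 and 100 CPM 114 (3.19%), and at 100 CPM or more 49 (2.51%). The median difference in Wistar was -1.15, -1.14 and -1.02 in these ranges, and in SHRSP it was -1.09, -1.05 and -1.02. The 10 most abundant members held 34.5% of all member counts, so the summed share above reflects them more than the others. Of the 225, 221 had counts in all 19 neuron libraries.

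The largest mean difference belonged to ENSRNOG00000005109. It measured 5.77, 20.7, 15.5, 16.6 and 461 CPM in early Wistar neurons (340, 343, 346, 349 and 368) and 1.59, 1.21, 1.58 and 1.13 CPM in late ones (350, 351, 353 and 354). In SHRSP it stood at 12.5, 16.8, 10.4, 41.4 and 15.7 CPM early and at 4.6, 3.73, 4.14, 8.98 and 7.67 CPM late, in the animal order given above. Early and late animals did not overlap in either strain, but animal 368 stood far above the other early Wistar animals and raised their mean. Each of the late Wistar values rested on 3 counts.

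ENSRNOG00000043465 had the next largest difference. Its early Wistar values were 21.9, 66.6, 12.6, 51.1 and 21.0 CPM, and the late ones 6.36, 37.6, 1.06 and 2.64 CPM. In SHRSP it measured 60.0, 14.3, 47.5, 2.37 and 13.4 CPM early and 3.83, 1.6, 2.41, 11.4 and 0.451 CPM late. Here the groups overlapped: late Wistar animal 351 was above 3 early animals, and early SHRSP animal 383 was at the level of the late ones. The values of late animals 353, 379 and 384 rested on 2, 3 and 1 counts.

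The most abundant member, ENSRNOG00000006997, measured 1953, 2888, 2758, 2469 and 3204 CPM in early and 1497, 2274, 1115 and 1092 CPM in late Wistar neurons. In SHRSP it measured 2974, 2564, 2597, 1752 and 2597 CPM early and 1747, 1014, 1692, 2066 and 900 CPM late. ENSRNOG00000009205 came second, at 1244 ± 441 and 634 ± 180 CPM in early and late Wistar neurons and 1505 ± 392 and 728 ± 202 CPM in SHRSP (SD, n = 5, 4, 5 and 5). In both IDs late animals reached early values: animal 351 in Wistar and 382 in SHRSP for both, and for the second also 354 and 381. Early animal 368, the highest for the first of these IDs, was the lowest early Wistar animal for the second, at 557 CPM.

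**Figure D3:**
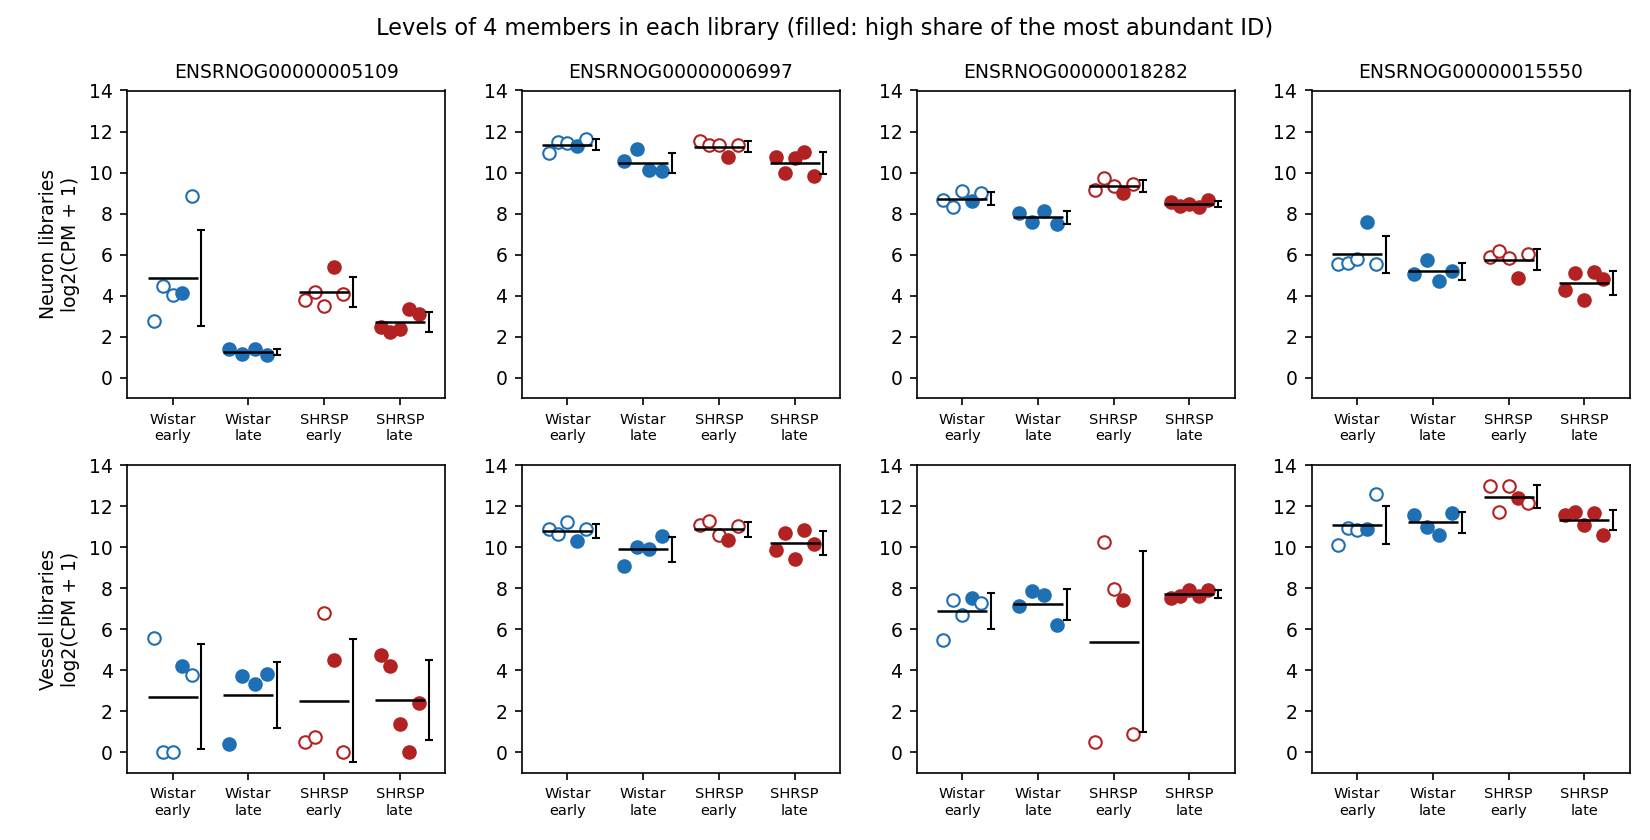
Levels of 4 members, as log2(CPM + 1), in each neuron (upper) and vessel library (lower), by strain and stage. ENSRNOG00000005109 and ENSRNOG00000006997 were chosen by the size of their neuron difference and by abundance, ENSRNOG00000018282 and ENSRNOG00000015550 because they passed a test. Lines are group means, bars SD, and filled points high-share animals; ENSRNOG00000015550 is far higher in vessels than in neurons.

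At the edge of the rule, values inside and outside were alike. Just inside lay ENSRNOG00000037540 (-0.80 in Wistar and -0.84 in SHRSP) and ENSRNOG00000029698 (-0.80 and -0.83). Just outside lay ENSRNOG00000002255 (-1.0 and -0.80) and ENSRNOG00000046211 (-0.90 and -0.80), whose SHRSP differences fell short by 0.01 or less. Their means over the neuron libraries were 49.8, 118, 88.0 and 84.6 CPM.

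The early high-share animals lay between the other early animals and the late ones. Over the members, early Wistar animal 349 was lower than the mean of the other 4 early Wistar animals by a median of 0.52, while the late Wistar mean was lower than those 4 by 1.23. Early SHRSP animal 383 was lower than its 4 companions by a median of 0.71, and the late SHRSP mean by 1.21. Over all 8060 IDs these animals differed from the others of their group by a median of 0.07 and 0.04. Animal 349 was the lowest early Wistar library for 107 members (47.6%) and for 15.9% of the 8060 IDs, and animal 383 the lowest early SHRSP library for 149 members (66.2%) and 24.3% of the 8060 IDs. Within the high-share animals alone, the late mean lay below the single early animal by a median of 0.74 in Wistar and 0.54 in SHRSP. In that early animal 7 (3.11%) and 32 members (14.2%) lay below the late mean, against 40.8% and 42.1% of the 8060 IDs. All these libraries entered the rule, which favours a lower late mean, so these values are a description. With 1 early animal per strain this comparison has no replicate check, and the part of the library property in the difference was not tested. With both animals left out, 315 IDs met the rule, and 212 of the 225 were among them.

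Late animals also differed among themselves. In late Wistar neurons, animal 351 was the highest of 4 for 70.7% of the members and for 34.9% of the 8060 IDs, and its members were higher than the mean of the other 3 by a median of 0.84. Its most abundant ID took 24.3% of the counts, against 35.0% to 35.5% in the other late Wistar animals. In late SHRSP neurons, animal 379 was the lowest of 5 for 47.1% and animal 384 for 40.0% of the members, against 31.4% and 21.0% of the 8060 IDs. Their members were lower than the mean of the others by a median of 0.70 and 0.64. Their most abundant ID took 26.7% and 21.3%, against 20.4% to 25.0% in the other 3, so animal 379 had the largest share in the group and animal 384 one of the smallest. In late Wistar animals 353 was the lowest for 47.1% of the members in neurons and for 48.0% in vessels. Other animals changed place. Animal 354 was the lowest in neurons for 32.9% of the members, not far from its 25.0% of the 8060 IDs. It was the highest late Wistar vessel library for 52.0% of the members, against 24.7% of the 8060 IDs. Animal 379 had a median member level of 5.42 in vessels (log2(CPM + 1)), the second highest of the late SHRSP group. In neurons its level was 3.99, the lowest.

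The vessel libraries did not enter the rule and were tested, although they come from the same animals and library sets. All 225 members passed the filter on low counts there. Tests used edgeR's quasi-likelihood test across 11011 IDs with Benjamini-Hochberg adjustment. In late against early Wistar vessels 0 members passed at an adjusted p under 0.05, and 0.00908% of all IDs tested did (1 ID). DESeq2 also called 0 members (0.309% of all IDs) and limma voom 0 members (0.0% of all IDs). At an unadjusted p under 0.05 in edgeR 9 members were lower (4.0%, against 0.717% of all IDs) and 0 higher, against 2.92%. In SHRSP vessels 1 member passed, lower in late animals, and it was the 1 ID (0.00908%) that passed among all IDs. Unadjusted, 17 members were lower (7.56%, against 2.31% of all IDs) and 8 higher (3.56%, against 11.6%). DESeq2 called 12 members there (5.33%, against 3.25% of all IDs), 6 lower and 6 higher. In limma voom 16 were called (7.11%, against 11.4%), 3 lower and 13 higher. Among all IDs these calls were 34 lower and 324 higher in DESeq2, and 16 lower and 1236 higher in limma voom. The members' median log2 fold was -0.94 in Wistar and -0.54 in SHRSP vessels, and that of all IDs tested was 0.21 and 0.45. Below 0 lay 172 members in Wistar (76.4%, against 42.1% of all IDs tested) and 147 in SHRSP (65.3%, against 40.7%).

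The sign of the members' median in SHRSP vessels depended on the scale. In Wistar vessels it was below 0 on each scale given here, but it was 0.02 in log2(CPM + 1) without early animal 340. On the rule's scale of mean log2(CPM + 1) the members' median was -0.14 in Wistar and 1.07 in SHRSP vessels, against 1.01 and 1.94 over the 8060 IDs. In limma voom it was -0.09 and 1.23, against 1.5 and 2.17 over all IDs tested. Members thus stood below the median ID on each of these scales, with medians differing by -1.16 and -0.99 in edgeR. Early vessel libraries outside the high-share set lacked counts for many members: 14 to 127 of the 225 were at 0 there, most in SHRSP animal 377. Late vessel libraries had 2 to 31 members at 0, and the early animals 349 and 383 had 0 and 10. With the library set as a term in edgeR the members' medians were -0.44 and -0.22, against -0.09 and 0.14 over all IDs tested, so the distance was smaller there. In the high-share animals alone they were -0.42 and -0.02, against 0.09 and 0.28. Among the 55 members with counts in all 19 vessel libraries the median was -0.72 in Wistar and -0.11 in SHRSP on the rule's scale. Of these members 42 (76.4%) and 30 (54.5%) were below 0. Over the 1866 IDs of the same kind the medians were 0.24 and 0.77, with 36.0% and 27.2% below 0. Summed over members, vessel shares were 2.78% ± 0.703 early and 1.89% ± 0.265 late in Wistar (SD, n = 5 and 4) and 3.63% ± 0.57 early and 2.29% ± 0.56 late in SHRSP (n = 5 each). The early Wistar values were 2.67%, 2.48%, 2.80%, 2.03% and 3.93% and the late ones 2.03%, 1.88%, 1.53% and 2.14%. Early animal 349 thus lay among the late Wistar animals. The early SHRSP values were 4.15%, 3.09%, 4.13%, 2.95% and 3.81% and the late ones 2.33%, 2.97%, 1.71%, 2.69% and 1.75%, so late animal 379 lay just above early animal 383. The SHRSP sums include ENSRNOG00000015550, which had means of 5986 CPM early and 2684 CPM late in these vessels.

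**Figure D4:**
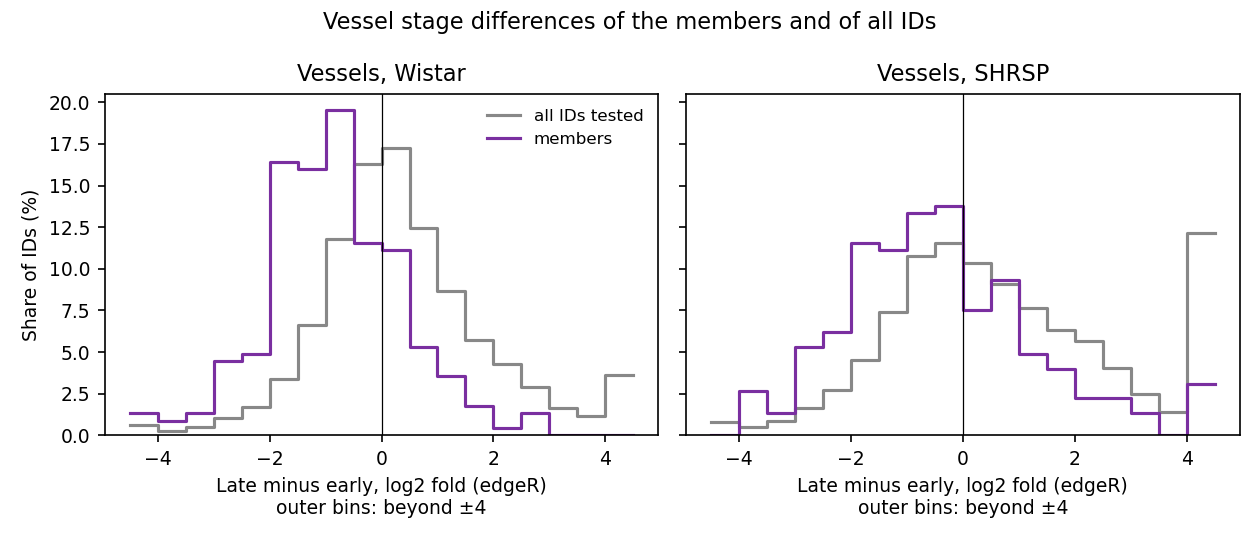
Share of IDs (vertical, %) by log2 fold of late against early vessels (horizontal, steps of 0.5, outer bins open), for all 11011 IDs tested and the 225 members, in Wistar and SHRSP. The members' distribution lies to the left of that of all IDs, with medians of -0.94 against 0.21 and -0.54 against 0.45.

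The neuron threshold was also applied to the vessel differences. A difference of -0.8 or lower on the rule's scale was found for 72 members in Wistar vessels (32.0%, against 5.38% of the 8060 IDs), for 28 in SHRSP vessels (12.4%, against 3.06%) and for 12 in both (5.33%, against 0.385%). Late vessel libraries lay wholly below early ones for 2 members in Wistar (0.285% of the 8060 IDs did) and for 5 in SHRSP (0.273%). These differences share animals and library sets with the neuron libraries, and whether they come from those sets was not tested.

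The member that passed in SHRSP vessels was ENSRNOG00000015550. It measured 8244, 3392, 8242, 5498 and 4554 CPM in early SHRSP vessels (374, 377, 380, 383 and 386) and 3073, 3362, 2145, 3310 and 1530 CPM in late ones (378, 379, 381, 382 and 384). The groups were separate, but animals 377 and 379 lay close together. Late vessels were 2.63-fold lower in edgeR, with a log2 fold of -1.40 (SE 0.25, adjusted p = 0.00026). In Wistar vessels it measured 1117, 1946, 1851, 1927 and 6192 CPM early and 3038, 2030, 1561 and 3284 CPM late, with overlap of the groups (log2 fold -0.20, SE 0.26, adjusted p = 1, edgeR). The difference between the strains' stage effects did not pass (log2 fold -1.20, SE 0.35, adjusted p = 0.297, edgeR), and 0 members passed that test, against 0.00908% of all IDs (1 ID). Unadjusted, 1 member was lower in that test (0.444%, against 2.23% of all IDs) and 9 higher (4.0%, against 4.93%). DESeq2 called 6 members for it (2.67%, against 1.18%), limma voom 0 (0.0% of all IDs), and edgeR 1 without animal 368 (0.444%, against 0.0182%). In neurons the same ID was low, at 27.8 to 69.9 CPM in early and 12.8 to 34.7 CPM in late SHRSP and at 45.1 to 193 and 25.3 to 51.8 CPM in Wistar animals. The highest neuron value, 193 CPM, came from animal 349. The vessel call was lost in DESeq2 (log2 fold -1.41, adjusted p = 0.118) and in edgeR without the filter on low counts (-1.30, 0.117). It was also lost without animal 374 (-1.13, 0.0606), 377 (-1.50, 0.288), 383 (-1.34, 0.0522) or 384 (-1.11, 0.145). With the library set as a term the log2 fold was -0.93 (adjusted p = 1, edgeR), and in the high-share animals alone -0.94 (0.56).

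ENSRNOG00000006997, the most abundant member, did not pass in the vessels of either strain. Early Wistar vessels measured 1904, 1614, 2399, 1273 and 1911 CPM and late ones 546, 1039, 971 and 1511 CPM (log2 fold -0.98, SE 0.35, adjusted p = 0.718, edgeR). In SHRSP the values were 2198, 2452, 1572, 1305 and 2120 CPM early and 948, 1639, 687, 1824 and 1159 CPM late (log2 fold -0.87, SE 0.33, adjusted p = 0.188, edgeR). ENSRNOG00000030237, named after its values were seen because its p was the smallest of the members in Wistar vessels, measured 917, 520, 1162, 341 and 830 CPM early and 82.1, 309, 19.6 and 414 CPM late there (log2 fold -2.02, SE 0.54, adjusted p = 0.649, edgeR). In SHRSP vessels its log2 fold was -1.52 (SE 0.49, adjusted p = 0.188, edgeR). In both IDs the lowest early Wistar vessel library was that of animal 349, and it lay among the late values.

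Neuron and vessel levels of the members were also compared on the rule's scale. The level was higher in neurons than in vessels for 196 members in early Wistar animals (87.1%, against 86.9% of the 8060 IDs), by a median of 1.23 on the log2(CPM + 1) scale. In late Wistar animals it was higher in neurons for 140 (62.2%, against 62.3%), by a median of 0.30. In SHRSP animals the counts were 200 early (88.9%, against 91.6%) and 106 late (47.1%, against 63.8%), with medians of 2.13 and -0.11. Between the stages the median gap over the 8060 IDs also narrowed, from 1.25 to 0.26 in Wistar and from 2.37 to 0.28 in SHRSP. These IDs were kept by their neuron level alone. Their median level was 0.0 to 4.17 in early SHRSP vessel libraries outside the high-share set. It was 5.53 in early animal 383, above every late SHRSP vessel library. In early Wistar vessels outside that set it was 2.37 to 5.32, below animal 349. What part of the narrowing comes from low counts in those early vessel libraries was not tested. Members were chosen for a lower late level and a mean of at least 10 CPM in neurons, so these figures are a description.

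The strain difference was not used to choose members, although the same neuron libraries were. Over the mean of both stages 1 member passed in neurons, higher in SHRSP, where 0.674% of 10833 IDs passed (73 IDs). Unadjusted, 5 members were lower (2.22%, against 3.96% of all IDs) and 9 higher (4.0%, against 3.79%) at p under 0.05. DESeq2 called 5 members (2.22%, against 1.47%) and limma voom 1 (0.444%, against 0.591%). The members' median log2 fold was -0.09 and that of all IDs tested 0.00, but without late Wistar animal 351 the members' median was 0.08. The member was ENSRNOG00000018282, 1.57-fold higher in SHRSP neurons (log2 fold 0.65, SE 0.13, adjusted p = 0.0162, edgeR). It measured 557, 863, 645, 504 and 700 CPM in early SHRSP and 397, 314, 539, 388 and 509 CPM in early Wistar neurons, with overlap of 2 Wistar animals with the lowest SHRSP animal. Late SHRSP neurons held 374, 327, 355, 322 and 405 CPM and late Wistar neurons 260, 192, 282 and 178 CPM, without overlap. Both strains were lower late, which follows from the choice of the members. Late SHRSP neurons were near early Wistar neurons. The call was lost in the high-share animals alone (adjusted p = 0.876) and without late Wistar animal 354 (0.0573).

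In vessels ENSRNOG00000018282 did not differ detectably between the strains (log2 fold 0.90, SE 0.57, adjusted p = 0.736, edgeR). Its early SHRSP vessel libraries ranged from 0.421 to 1220 CPM, and 0 of the 225 members passed for strain in vessels in edgeR, where 0.0817% of 11011 IDs did (9 IDs). Unadjusted, 8 members were lower (3.56%, against 5.93% of all IDs) and 7 higher in SHRSP (3.11%, against 2.75%). DESeq2 called 5 members (2.22%, against 1.26% of all IDs) and limma voom 0 (0.0% of all IDs). The members' median strain difference in vessels was 0.14 and that of all IDs tested -0.12. Its sign did not hold: the members' median was -0.36 in limma voom and -0.08 in edgeR without early SHRSP animal 374 or 380.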

How the data were processed

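Counts of reads, deposited by the authors for 38 libraries and one value per Ensembl ID, came from RNA isolated with a PicoPure kit and 3' end libraries (QuantSeq), per the labels' protocols. Per the submitters' processing notes, the tools were STAR 2.5.3a, HTSeq 0.6.1, DESeq2 1.18.1 and FastQC 0.11.5. The sources used here give no genome build, annotation or strand setting. A 3' count does not grow with transcript length. Columns without a sample numbered 0.

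CPM and the rule were computed from the counts. Tests across all genes used edgeR 4.0.16 in R 4.3.3 within each material: 4 groups, TMM scaling, edgeR's filter by group size, and the robust quasi-likelihood test with Benjamini-Hochberg adjustment, two-sided. An SE was taken as the absolute log2 fold over the root of its F value. The scripts were tested on simulated data. DESeq2 1.42.0 and limma 3.58.1 were alternatives, as were other scaling, filters, library sets and leaving out each animal. Replicates are separately numbered animals, so p-values cover the variation of animals plus that of capture and library preparation.

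The members and lists were chosen with earlier results of these data known. The 29 gene lists and marker lists need names and could not be applied. At most 2 IDs per direction were named for each part of the rule (largest mean fall, highest mean CPM, nearest inside and outside the threshold, members called). Limits from counts cover counting error only, and 1 count was worth 0.223 to 0.895 CPM.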

Additional observations from a re-analysis of the deposited data

Results flagged for a closer look

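Values were looked at in 112 sets: 11 named IDs, the members' summed share, median level and number detected, each in 8 groups. In 12 of these sets 1 library lay far from the rest of its group by Dixon's test. The test's nominal rate of 1 in 20 (5.6 of 112) holds for normally distributed values. Named IDs were chosen by their values here and some sets had no spread, so 5.6 is no baseline for the 12. The members' share in early SHRSP neurons was lowest in animal 383, at 1.89%. ENSRNOG00000005109 stood out in 3 groups, at 461 CPM in early Wistar neurons (animal 368), 41.4 CPM in early SHRSP neurons (383) and 110 CPM in early SHRSP vessels (380). ENSRNOG00000043465 did so at 37.6 CPM in late Wistar neurons (351) and 124 CPM in early SHRSP vessels (374). Animal 351 was also the high value among late Wistar neurons for ENSRNOG00000009205, at 903 CPM, and for ENSRNOG00000046211, at 108 CPM. The latter was high at 136 CPM in early Wistar neurons of animal 343. ENSRNOG00000018282 was high at 1220 CPM in early SHRSP vessels of animal 377. ENSRNOG00000015550 was high at 193 CPM in early Wistar neurons of animal 349 and at 6192 CPM in early Wistar vessels of animal 368. No member's stage difference in vessels differed between the strains at an adjusted p under 0.05 in edgeR, with 1 lower and 9 higher at an unadjusted p under 0.05 (0.444% and 4.0%, against 2.23% and 4.93% of all IDs).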

How the results depend on the processing

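The number of IDs that met the rule was 157 to 315 under other pseudocounts, minimum levels, TMM scaling, group medians and without animals 349 and 383, and 175 to 285 without any 1 animal. It was 767 with the most abundant ID kept in the totals, since its larger late share then lowers all others, and 216 of the 225 were among them. With group medians 230 IDs met it and 151 were shared. Members called in late against early SHRSP vessels (1 in edgeR) numbered 12 in DESeq2 (6 lower and 6 higher, where 3.25% of all IDs were called). They numbered 16 in limma voom (3 and 13, where 11.4% of all IDs were called). Without the filter on low counts and with the library set as a term they numbered 0, against 0% of all IDs. Without 1 animal they numbered 0 to 13. They were 0 without 374, 377 or 384, and 13, of which 12 higher, without 383 (5.78%, against 12.1% of all IDs). In Wistar vessels they numbered 0 under every alternative but 1 without animal 343 (0.444%, against 0.0365% of all IDs). For strain in vessels (0 in edgeR, against 0.0817% of all IDs) 5 passed in DESeq2 (2.22%, against 1.26%). With DESeq2-type scaling and without the filter 1 passed (0.444%, against 0.109% and 0.0507%). Leaving out 1 animal gave 0 to 3. There were 3 without 368 (1.33%, against 0.191%) and 2 without 343 or 354 (0.889%, against 0.109% and 0.0783%). Without 350, 377 or 386 there was 1 (0.444%, against 0.0609%, 0.163% and 0.136%). For strain in neurons (1 in edgeR, 0.444% against 0.674% of all IDs) 5 passed in DESeq2 (2.22%, against 1.47%). With the set as a term 2 passed (0.889%, against 0.914%). Leaving out 1 animal gave 0 to 3. There were 0 without 354 (against 0.414%) and 3 without 383 (1.33%, against 0.723%). Without 343, 351 or 379 there were 2 (0.889%, against 1.12%, 0.667% and 0.6%). The cause was not tested. The strain fits already use only the groups compared. No paired analysis was possible because the stages and strains tested consist of different animals. Neuron and vessel levels, which come from the same animals, were compared as group means without a test.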
